A study of Mus musculus with 25 samples.

Results

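The integrated stress response genes examined here are *Atf4*, *Ddit3*, *Chac1*, *Trib3*, *Sesn2*, *Asns*, *Psat1*, *Phgdh*, *Shmt2* and *Mthfd2*. These 10 genes were chosen by name as genes of the ATF4 pathway, and all 10 were found among the 23116 genes of the deposited expression table and passed the filter on low values. RNA-seq had been performed on the HSLAM population (LSK+ CD150+ CD48-), the bone marrow gate that is enriched for hematopoietic stem cells, from 3 control mice (*Znf143 f/f* without Cre, from the *Rosa26ERT2-Cre-* side of the cross) and 3 deleted mice (called *Znf143 -/-*, which carried *Rosa26ERT2-Cre+*). The mice were male, labelled as C57BL/6 and 8 to 12 weeks old, and are described as 3 littermate pairs across the genotypes, without saying which library belongs to which pair. Both genotypes carried the floxed allele, and both received tamoxifen at its middle dosage over 10 days, so that the genotypes differ in the Cre transgene as well as in *Znf143*. Cre expressed from the *Rosa26* locus is active in most cells of the body, so that *Znf143* could be deleted outside the blood system too. The sample labels call the deleted genotype a CTCF knockout, whereas the study describes it as *Znf143 -/-*. The other samples of the study (ChIP-seq and HiC) were not analysed here.

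In the integrated stress response, kinases that sense amino acid shortage, unfolded protein, viral RNA or mitochondrial damage phosphorylate the alpha subunit of eIF2. General translation then slows, while translation of the *Atf4* mRNA increases through its upstream reading frames. ATF4 protein is a bZIP factor that drives genes for amino acid synthesis and uptake, tRNA charging and mitochondrial one-carbon metabolism, together with the proapoptotic factor CHOP (*Ddit3*) and the feedback inhibitor *Trib3*. Much of the control of ATF4 is translational, so an mRNA level is only a partial measure of it. Blood stem cells keep a low rate of protein synthesis and are known to be sensitive to this pathway. ZNF143 is a zinc finger factor that binds promoters.

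Values are FPKM (fragments scaled to the length of the gene and the size of the library), rescaled between libraries by a median ratio over genes. Levels of different genes can therefore be compared per length. Fragments on genes ranged from 38643255 to 57895793 per library, so that counting error is small for every gene of the set except *Chac1*, which had 14 to 91 fragments per library. The gene targeted by the deletion is listed under its mouse symbol *Zfp143*. It was at 3.09, 4.45 and 3.68 FPKM in *f/f* libraries 1 to 3 and at 0.156, 0.299 and 0.272 FPKM in *-/-* libraries 1 to 3 (adjusted p = 0.001 and, with the close pairs described next averaged, 0.032; limma with Benjamini-Hochberg adjustment over all genes tested). The genotype of all 6 libraries by this gene was that of the study's description.

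The libraries did not stand at equal distances from each other. For each pair of libraries, the recovered fragments were compared gene by gene over genes with at least 200 fragments in the pair, and the median chi-square was divided by the value that counting noise alone gives. This ratio was 3.48 between *f/f* libraries 1 and 3 and 3.95 between *-/-* libraries 2 and 3. It was 35.5 to 44.5 in the other 4 pairs of 1 genotype, and 38.8 to 71.7 between genotypes. The libraries of both close pairs still differed by more than counting noise, so that each was kept as a sample. Nothing in the sources used here says that they came from the same mouse or RNA. *f/f* library 2 was the highest or the lowest of its genotype for all 10 stress genes. A library outside a close pair will often be at an extreme, and the share over all genes was not counted. If the close pairs are not independent samples, the p-values below are too small, and therefore the comparisons were repeated with the close pairs averaged, which leaves 2 against 2 libraries. This alternative was chosen after the data had been seen.

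**Figure D1:**
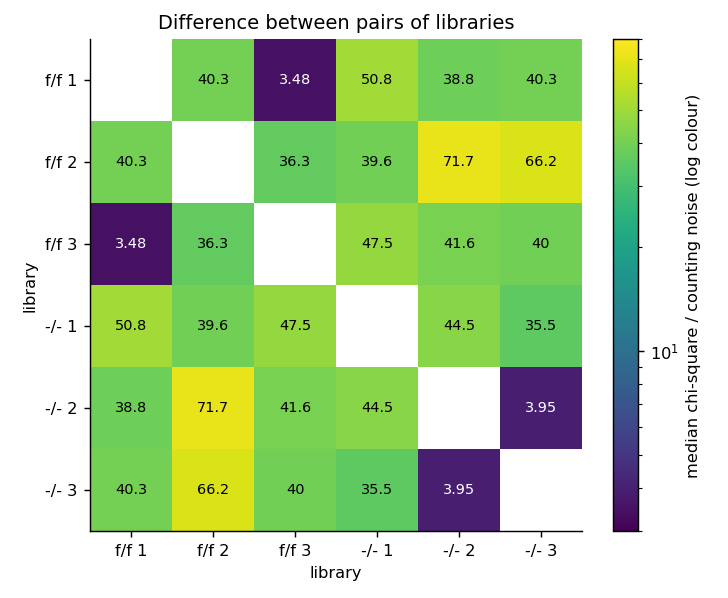
Difference between each pair of the 6 libraries, shown as the median chi-square of the fragments per gene divided by that of counting noise (colour on a log scale, both axes list the libraries by genotype and number). *f/f* libraries 1 and 3 (3.48) and *-/-* libraries 2 and 3 (3.95) stand out as close pairs, while every other pair has a value of at least 35.5.

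To ask whether the pathway was changed at the mRNA level by loss of ZNF143, the genotypes were compared gene by gene with limma. *Asns*, asparagine synthetase, was the only member of the 10 with an adjusted p under 0.05 and its mean in *-/-* cells was 138% of that in *f/f* cells. In the rescaled values, *Psat1* and *Shmt2* were also higher in every *-/-* library than in every *f/f* library. *Trib3* was lower in every *-/-* library, but none of these 3 passed the adjusted threshold. On the same scale, the libraries of the factors *Atf4* and *Ddit3* overlapped between genotypes, and neither passed. With the close pairs averaged, none of the 10 genes passed, and their adjusted p ranged from 0.463 (*Trib3*) to 0.985 (*Sesn2*) (limma).

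Among all 19293 genes with a mean of at least 0.1 FPKM, 1154 passed the adjusted threshold, which is 5.98% and is the background for the 1 stress gene of 10. In 4 of the 10 stress genes the *-/-* and *f/f* libraries did not overlap, against 30.7% of all genes. An unadjusted p under 0.05 was found for the same number of members, *Asns*, *Psat1*, *Trib3* and *Shmt2*, against 24.2% of all genes. The log2 fold change was above 0 in 8 of the 10 members, beside 9772 of all 19293 genes. The median of the members was 0.15, beside a median of 0.01 over all genes. With the close pairs averaged, 47 genes of the whole table passed.

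**Figure D2:**
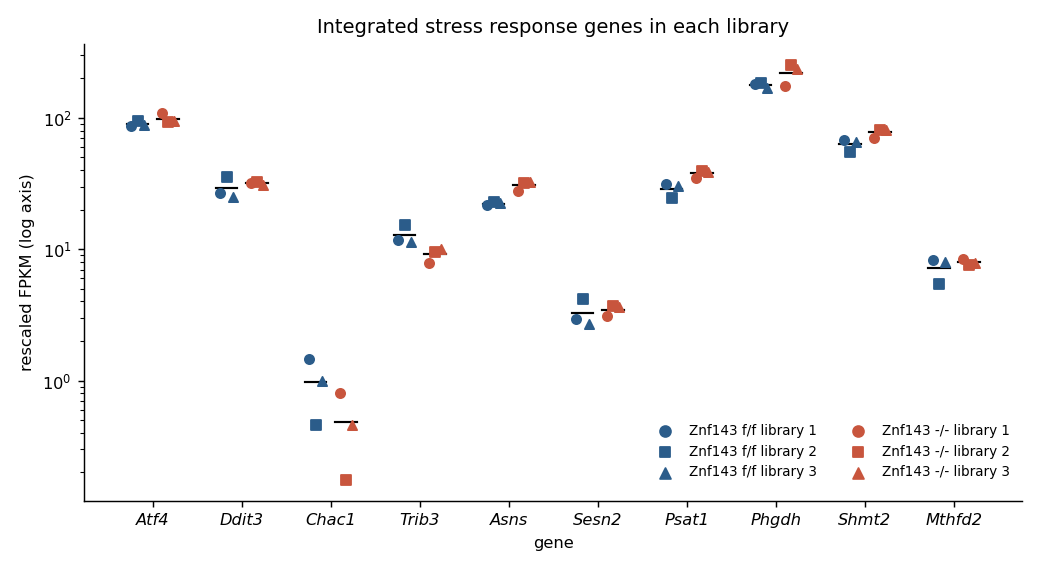
Level of each of the 10 genes in each library, as rescaled FPKM on a log axis. Blue marks the 3 *f/f* and red the 3 *-/-* libraries, the marker shape gives the library number, and bars are means. The *-/-* points lie above all *f/f* points for *Asns*, *Psat1* and *Shmt2* and below them for *Trib3*, while the points of the other 6 genes overlap.

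The 10 genes covered a wide range of levels in *f/f* cells. *Phgdh* was the highest at 179 ± 8.1 FPKM (SD, n = 3), followed by *Atf4* at 89.9 ± 4.3 and *Shmt2* at 63.0 ± 6.9. *Ddit3* at 29.2 ± 5.6 and *Psat1* at 28.7 ± 3.5 came next and were not separated, since their *f/f* libraries overlapped. They were followed by *Asns*, *Trib3*, *Mthfd2* and *Sesn2*, and *Chac1* was the lowest at 0.967 ± 0.50 FPKM. Apart from *Ddit3* and *Psat1*, no neighbours in this order had overlapping *f/f* libraries. In *-/-* cells, *Trib3* and *Mthfd2* also overlapped.

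The transcription factors come first in the pathway. *Atf4* was at 87.0, 94.8 and 87.8 FPKM in the *f/f* libraries and at 108, 92.7 and 95.5 FPKM in the *-/-* libraries. In these rescaled values the groups overlapped, because *-/-* library 2 was below *f/f* library 2, and *-/-* library 1 was the highest of all. In the deposited values the groups did not overlap, at 85.9 to 86.8 FPKM in *f/f* and 93.7 to 115 FPKM in *-/-* cells. *Atf4* had a log2 fold change of 0.13 with a 95% interval from -0.09 to 0.36 (adjusted p = 0.434, limma, and 0.857 with the close pairs averaged). *Ddit3*, which encodes CHOP, was at 26.9, 35.7 and 25.2 FPKM in the *f/f* libraries and at 32.2, 32.2 and 30.9 FPKM in the *-/-* libraries. Its highest and its lowest values were both in *f/f* cells, and the log2 fold change was 0.14 with an interval from -0.19 to 0.46 (adjusted p = 0.601, limma, and 0.955 with the close pairs averaged). Exons of *Ddit3* overlap exons of *Mars* and *Gm4189* on the other strand, and the library kit does not keep the strand, so fragments of these genes cannot be told apart there.

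*Trib3* encodes a pseudokinase that binds ATF4 and CHOP and restrains them. It was at 11.7, 15.2 and 11.3 FPKM in the *f/f* libraries and at 7.85, 9.55 and 10.1 FPKM in the *-/-* libraries. All *-/-* values were below all *f/f* values, and the mean in *-/-* cells was 72.0% of that in *f/f* cells. Its log2 fold change was -0.47 with an interval from -0.83 to -0.10 (adjusted p = 0.129, limma, and 0.463 with the close pairs averaged). *Trib3* was below 0 in all 16 alternative analyses and passed the threshold in none of them.

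*Chac1* encodes a glutathione-degrading enzyme and is a target of ATF4 together with CHOP. It was at 1.45, 0.461 and 0.987 FPKM in the *f/f* libraries and at 0.803, 0.175 and 0.463 FPKM in the *-/-* libraries. The groups overlapped and the values varied widely within each genotype, also within the close pairs, where *-/-* library 2 had 14 fragments and *-/-* library 3 had 44. On the log2 scale the change was -0.92 with an interval from -2.20 to 0.36 (adjusted p = 0.350, limma, and 0.860 with the close pairs averaged), an interval that holds both decreases and increases. *Sesn2*, a leucine-binding inhibitor of mTORC1, was at 2.96, 4.19 and 2.70 FPKM in the *f/f* libraries and at 3.10, 3.68 and 3.65 FPKM in the *-/-* libraries. The *-/-* values fell inside the *f/f* range, and the sign of the log2 fold change of 0.10 turned to -0.03 with the close pairs averaged.

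*Asns*, which makes asparagine from aspartate and glutamine, was at 21.6, 22.7 and 22.4 FPKM in the *f/f* libraries and at 27.5, 31.9 and 32.7 FPKM in the *-/-* libraries. The *f/f* values lay close together (22.2 ± 0.55, SD, n = 3), and the lowest *-/-* value, in library 1, was still above all of them. The log2 fold change was 0.46 ± 0.09 (SE) with an interval from 0.24 to 0.68 (adjusted p = 0.0379, limma). The fold change stayed between 0.41 and 0.57 under all 16 alternatives, but the adjusted p was under 0.05 in 7 of them and ranged from 0.012 to 0.500. It was 0.121 with FPKM as deposited and 0.500 with the close pairs averaged. Without *f/f* library 1 it was 0.147, without *f/f* library 3 it was 0.152, without *-/-* library 2 it was 0.143 and without *-/-* library 3 it was 0.185. It stayed under the threshold without *f/f* library 2 or without *-/-* library 1, which are the libraries outside the close pairs. Leaving either of these out makes a close pair the whole of its genotype group.

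*Phgdh* and *Psat1* encode the enzymes of the opening steps of serine synthesis from glycolysis. *Psat1* was at 31.2, 24.7 and 30.2 FPKM in the *f/f* libraries and at 34.6, 39.6 and 39.0 FPKM in the *-/-* libraries. All *-/-* values were above all *f/f* values, with *f/f* library 2 the lowest of the 6. *Psat1* had a log2 fold change of 0.40 with an interval from 0.12 to 0.68 (adjusted p = 0.0965, limma, and 0.542 with the close pairs averaged). *Phgdh* was at 182, 186 and 170 FPKM in the *f/f* libraries and at 173, 254 and 237 FPKM in the *-/-* libraries. *-/-* library 1 lay inside the *f/f* range, whereas *-/-* libraries 2 and 3 were above it. The log2 fold change was 0.29 with an interval from -0.08 to 0.66 (adjusted p = 0.316, limma, and 0.861 with the close pairs averaged). Without *-/-* library 1 it was 0.45 (adjusted p = 0.0305, limma), but the *-/-* group is then the close pair alone.

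*Shmt2* and *Mthfd2* encode mitochondrial enzymes that take one-carbon units from serine and pass them on through folate. *Shmt2* was at 68.1, 55.2 and 65.8 FPKM in the *f/f* libraries and at 70.2, 81.2 and 81.3 FPKM in the *-/-* libraries. In these rescaled values the groups did not overlap, although *-/-* library 1 stood only slightly above *f/f* library 1. For *Shmt2* the log2 fold change was 0.30 with an interval from 0.03 to 0.57 (adjusted p = 0.170, limma, and 0.677 with the close pairs averaged). Exons of *Shmt2* overlap those of *Ndufa4l2* on the other strand. *Mthfd2* was at 8.23, 5.47 and 7.97 FPKM in the *f/f* libraries and at 8.44, 7.60 and 7.81 FPKM in the *-/-* libraries. *f/f* library 2 was the lowest, the other 5 libraries lay close together, and without that library the log2 fold change turned from 0.16 to -0.03 (adjusted p = 0.618 with all libraries and 0.796 with the close pairs averaged, limma).

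**Figure D3:**
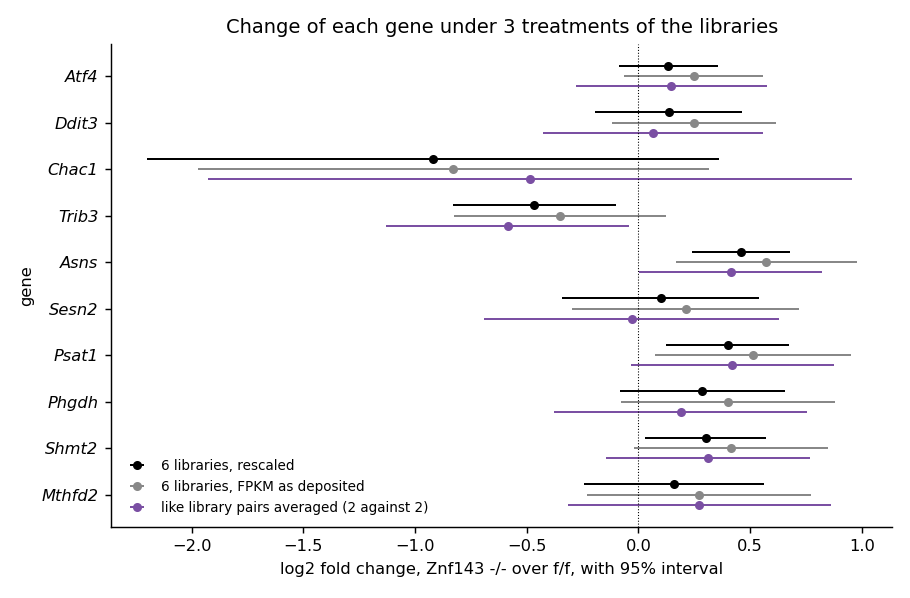
Log2 fold change of each gene, *Znf143 -/-* over *f/f*, with its 95% interval (x axis), from the 6 rescaled libraries (black), from FPKM as deposited (grey) and with the close library pairs averaged (purple, 2 against 2). The interval of *Asns* lies above 0 in all 3 analyses and that of *Trib3* lies below 0 in black and purple, while the intervals of *Atf4*, *Ddit3*, *Chac1*, *Sesn2*, *Phgdh* and *Mthfd2* cross 0 in each.

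Scaling moved all genes together. In the deposited values, *-/-* library 3 carried the divisor of *-/-* library 2 (48378188) although its own fragments numbered 57895793, which puts every gene of this library higher. The median log2 fold change over all genes was 0.11 with FPKM as deposited, against 0.01 after rescaling, and that of the 10 stress genes was 0.26 against 0.15. No member changed its sign between both scalings. *Trib3* overlapped between genotypes in the deposited values, at 11.2 to 13.8 FPKM in *f/f* and 7.28 to 12.2 FPKM in *-/-* cells.

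Ratios of 2 genes within 1 library do not depend on this scaling, and they set each mitochondrial enzyme against its paralog. *Shmt1* encodes the cytosolic serine hydroxymethyltransferase. The log2 ratio of *Shmt2* over *Shmt1* was 1.64, 1.85 and 1.66 in the *f/f* libraries and 1.57, 1.35 and 1.42 in the *-/-* libraries. It was lower in every *-/-* library, by -0.27 on average, with p = 0.1 in a two-sided exact permutation test, which is the smallest p that 3 against 3 libraries can give. With the close pairs averaged the difference was -0.28 (exact permutation p = 0.333, the smallest that 2 against 2 can give). *Shmt1* itself was 19.2 ± 3.5 FPKM in *f/f* and 28.5 ± 4.3 FPKM in *-/-* cells (SD, n = 3; adjusted p = 0.109, limma). The log2 ratio of *Mthfd2* over *Mthfd2l*, another mitochondrial enzyme of the same step, was 0.45 ± 0.49 in *f/f* and 0.31 ± 0.29 in *-/-* cells (SD, n = 3) and overlapped (exact permutation p = 0.6). The difference of -0.14 in this ratio became 0.03 without *f/f* library 1, 0.02 without *-/-* library 1, -0.04 without *f/f* library 3, -0.42 without *f/f* library 2, -0.24 without *-/-* library 2 and -0.09 with the close pairs averaged. Adjusted over these 2 ratios, the exact permutation p-values were 0.2 and 0.6.

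Promoter sequences were read from RefSeq (GRCm38.p6) for all 10 genes, from 250 bases before to 50 bases after the annotated start, and searched on both strands for 3 motifs. TGATGNAA is the core of the composite element that ATF4 binds together with a C/EBP-type partner such as CHOP, and CCCANNATG and ACTACAATT are cores of the known ZNF143 motifs. The composite core was found in *Asns*, *Trib3* and *Chac1*, that is in 3 of 10 members, and in 3.97% of 32851 promoters. CCCANNATG was found in *Asns* and in 5.01% of promoters, and ACTACAATT in *Asns* and *Shmt2* and in 0.393% of promoters. The 4 promoters that hold a match are printed here 5′ to 3′ on the strand of the gene, up to 30 bases after the start, with the matches in capitals. They are shown because they include the 1 gene that passed the threshold and because these are the members with a match.

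Asns promoter, chr6:7693180-7693459, minus strand: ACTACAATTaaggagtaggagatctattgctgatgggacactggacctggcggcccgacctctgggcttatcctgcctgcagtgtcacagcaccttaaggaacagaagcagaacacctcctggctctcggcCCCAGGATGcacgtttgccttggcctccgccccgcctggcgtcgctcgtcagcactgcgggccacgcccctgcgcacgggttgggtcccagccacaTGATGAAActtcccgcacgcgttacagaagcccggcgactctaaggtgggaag
Shmt2 promoter, chr10:127522415-127522694, minus strand: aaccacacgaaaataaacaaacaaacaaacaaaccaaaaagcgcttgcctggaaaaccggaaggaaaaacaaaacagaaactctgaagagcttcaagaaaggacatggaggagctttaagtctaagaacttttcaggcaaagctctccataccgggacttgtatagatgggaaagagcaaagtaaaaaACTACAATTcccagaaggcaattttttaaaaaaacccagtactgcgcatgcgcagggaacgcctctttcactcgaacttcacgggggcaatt
Trib3 promoter, chr2:152344031-152344310, minus strand: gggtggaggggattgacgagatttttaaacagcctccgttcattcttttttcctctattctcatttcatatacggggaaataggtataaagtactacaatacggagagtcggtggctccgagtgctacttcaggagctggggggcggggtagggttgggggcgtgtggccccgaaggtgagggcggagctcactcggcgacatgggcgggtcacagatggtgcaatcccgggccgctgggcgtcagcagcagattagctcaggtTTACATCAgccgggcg
Chac1 promoter, chr2:119350992-119351271, plus strand: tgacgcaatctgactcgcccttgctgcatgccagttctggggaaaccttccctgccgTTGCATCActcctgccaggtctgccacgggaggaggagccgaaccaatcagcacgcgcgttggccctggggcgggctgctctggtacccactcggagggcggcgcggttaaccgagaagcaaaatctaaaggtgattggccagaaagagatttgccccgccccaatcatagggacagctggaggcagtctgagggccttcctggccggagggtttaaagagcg

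In *Asns*, capitals mark ACTACAATT at the very start of the window, 250 bases before the gene's start, then CCCAGGATG 119 bases and TGATGAAA 23 bases before it. In *Shmt2*, ACTACAATT begins 62 bases before the start. In *Chac1*, the reverse complement of the composite core, TTGCATCA, begins 193 bases before the start, and in *Trib3*, TTACATCA begins at base 15 after it. The 6 members without a match to these letters all had log2 fold changes above 0, as had *Asns* and *Shmt2*. Near forms of the motifs were not searched, so these 6 promoters may hold some. A match of letters is not a bound site. Genes of the set lie on several chromosomes of GRCm38, for example *Asns* at chr6:7675169-7693254 and *Trib3* at chr2:152337422-152344032, both on the minus strand.

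The wider pathway was examined in 9 lists with 110 genes, of which 108 were tested, 3 were called higher and 3 lower. This is 5.56% of the genes tested, beside 5.98% of all genes. With the close pairs averaged, none of them passed. No gene passed in 5 of the 9 lists.

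None of the 8 genes of the eIF2alpha kinases and their activators passed, and their median log2 fold change was 0.01. *Impact*, an inhibitor of GCN2 activation, had the lowest p of the list at 0.31 ± 0.15 (SE; adjusted p = 0.256, limma), and *Gcn1l1*, the activator of GCN2, was at -0.29 ± 0.16. None of 10 subunits of eIF2, eIF2B and the eIF2 phosphatase passed, with a median of 0.04. *Eif2s1*, the alpha subunit of eIF2 that the kinases phosphorylate, was at 46.2 to 53.7 FPKM in *f/f* and at 58.6 to 72.7 FPKM in *-/-* cells (adjusted p = 0.071, limma). *Eif2b5*, a catalytic subunit of the exchange factor, was at 26.2 to 27.9 FPKM in *f/f* and 29.9 to 37.6 FPKM in *-/-* cells (adjusted p = 0.102, limma).

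Of 9 bZIP factors that partner with or resemble ATF4, *Jdp2* fell, from 15.1, 11.6 and 12.7 FPKM in the *f/f* libraries to 6.94, 8.57 and 8.66 FPKM in the *-/-* libraries. *Jdp2* encodes an AP-1 family repressor, and its log2 fold change was -0.70 ± 0.14 (SE; adjusted p = 0.037, limma, and 0.308 with the close pairs averaged). *Cebpd* was at 0.89 ± 0.30 and did not pass. None of 10 amino acid transporters passed, with a median of 0.09. Among them *Slc7a5*, the large neutral amino acid transporter, was at 13.0 to 16.7 FPKM in *f/f* and at 16.3, 23.7 and 23.1 FPKM in *-/-* libraries 1 to 3, and *Slc1a5*, a glutamine transporter, was at 0.24 ± 0.12 (SE) on the log2 scale.

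The other enzymes of serine, one-carbon and amino acid synthesis had the highest median of the 9 lists at 0.21, with 10 of 13 tested genes above 0. The single gene called in the list went the other way. *Gpt2*, the mitochondrial alanine transaminase, fell from 1.97, 1.215 and 1.97 FPKM in the *f/f* libraries to 0.161, 0.529 and 0.528 FPKM in the *-/-* libraries (adjusted p = 0.042, limma, and 0.266 with the close pairs averaged). *Pycr1*, which makes proline, was at 1.96 to 2.69 FPKM in *f/f* and 3.45 to 4.07 FPKM in *-/-* cells without passing (adjusted p = 0.062, limma). None of 17 cytosolic aminoacyl-tRNA synthetases passed, although 14 were above 0 and their median was 0.15. The summed level of these synthetases was 457 to 488 FPKM in *f/f* libraries and 470, 581 and 563 FPKM in *-/-* libraries 1 to 3. *Vars*, the synthetase for valine, had the lowest p of the list at 0.53 ± 0.15 (SE; adjusted p = 0.089, limma), followed by *Tars*, that for threonine, at 0.37 ± 0.10.

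Of 15 tested effector and feedback genes of ATF4 and CHOP, 2 rose and 1 fell past the threshold. The median log2 fold change of this list was 0.01, with 8 genes above 0 and 7 below. In 10 of the 15 the libraries of the genotypes did not overlap (66.7%, against 30.7% of all genes). An unadjusted p under 0.05 was found for 9 of them (limma), against 24.2% of all genes. *Cdkn1a*, the cell cycle inhibitor p21, rose from 18.0, 16.8 and 17.3 FPKM to 33.0, 30.9 and 30.7 FPKM, a log2 fold change of 0.86 ± 0.08 (SE; adjusted p = 0.003, limma, and 0.132 with the close pairs averaged). *Pmaip1*, the BH3-only protein NOXA, rose from 0.099, 0.139 and 0.043 FPKM to 0.497, 0.363 and 0.416 FPKM (adjusted p = 0.038, limma, and 0.384 with the close pairs averaged), with as few as 5 fragments in a library. Its *f/f* mean of 0.094 FPKM was below the filter of 0.1 FPKM. It was therefore tested only through the *-/-* libraries, which favours a call as higher. *Cdkn1a* and *Pmaip1* are also well known as targets of p53. *Chac2*, the paralog of *Chac1* that degrades glutathione constitutively, fell from 9.18, 11.7 and 9.72 FPKM to 5.27, 4.56 and 4.44 FPKM (adjusted p = 0.008, limma, and 0.151 with the close pairs averaged).

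In 16 genes of the ATF6 and XBP1 arms of the unfolded protein response, *Edem1*, which helps to clear misfolded glycoproteins from the endoplasmic reticulum, rose by 0.49 ± 0.10 (SE) on the log2 scale (adjusted p = 0.044, limma, and 0.506 with the close pairs averaged). The median of this list was -0.09, with 11 genes below 0. *Sdf2l1*, a chaperone of the endoplasmic reticulum, was at 154 to 165 FPKM in *f/f* and 131 to 136 FPKM in *-/-* cells and did not pass (adjusted p = 0.116, limma). None of 10 mitochondrial chaperones and proteases passed, and their median was 0.09. *Clpp*, the mitochondrial matrix protease, was at 0.30 ± 0.10 and *Yme1l1*, a protease of the inner membrane, at 0.18 ± 0.09 (SE).

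**Figure D4:**
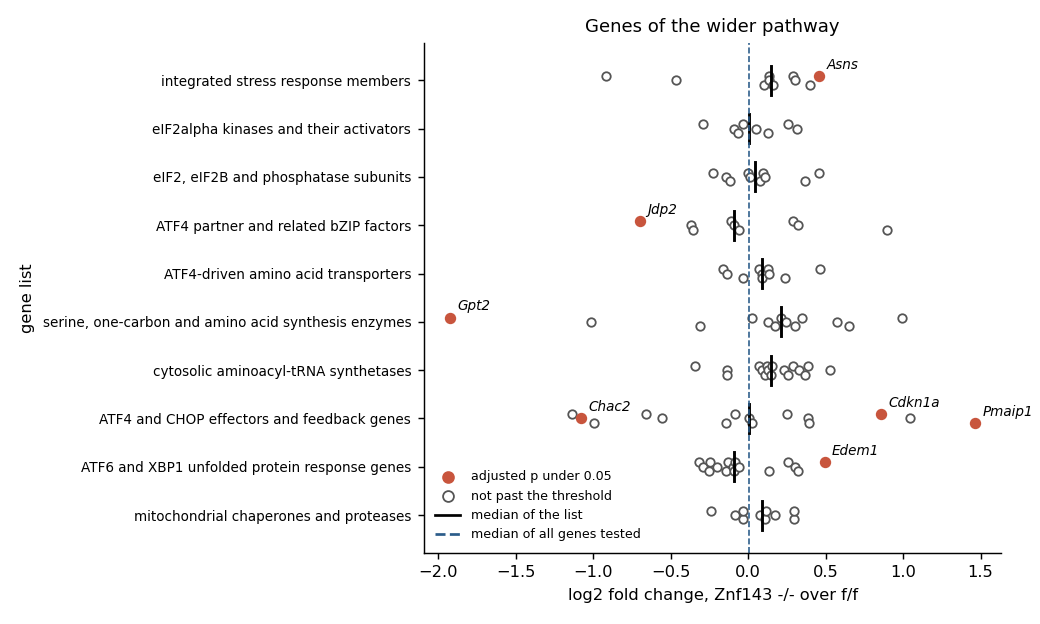
Log2 fold change (*Znf143 -/-* over *f/f*, x axis) of each tested gene of the 10 stress genes and of the 9 lists of the wider pathway. Filled points have an adjusted p under 0.05 and are named, black bars are list medians and the dashed line is the median of all genes tested. The 7 filled points lie on both sides of 0, and the list medians lie between -0.09 and 0.21.

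Several cell type markers differed between the genotypes, and of these only *Flt3* passed with the close pairs averaged. *Slamf1*, which encodes CD150 of the HSLAM gate, was present in all libraries at 5.16 to 9.07 FPKM. *Procr*, a stem cell marker that is not part of the gate, was at 43.2 to 49.0 FPKM. Both ranges are over the libraries of both genotypes. Of 10 stem cell markers, *Ly6a* was higher in *-/-* cells and *Mecom* lower, and 8 did not pass. The log2 fold change was below 0 in 7 of these 10 and above 0 in 3, with a median of -0.27. Their libraries did not overlap between genotypes in 7 of 10, against 30.7% of all genes. With the close pairs averaged, the adjusted p was 0.144 for *Ly6a* and 0.409 for *Mecom* (limma). Of 5 tested markers of multipotent and lymphoid progenitors, *Flt3*, *Cd48* and *Dntt* were higher in *-/-* cells, and the summed level of this list was 45.3 to 48.1 FPKM in *f/f* and 72.6 to 75.3 FPKM in *-/-* libraries. *Flt3* was at 4.99 to 5.42 FPKM in *f/f* and 15.6 to 16.1 FPKM in *-/-* cells and passed also with the close pairs averaged (adjusted p = 0.040, limma), where *Cd48* was at 0.140 and *Dntt* at 0.065, while *Il7r* was at 0 in 4 libraries. Of 9 granulocyte and monocyte markers, *Ctsg*, *Ngp*, *Elane*, *Csf1r* and *S100a8* were higher, although the summed level overlapped, at 769 to 831 FPKM in *f/f* and 696 to 854 FPKM in *-/-* libraries. With the close pairs averaged, none of these 5 passed, with an adjusted p from 0.103 (*Ctsg*) to 0.426 (*Csf1r*) (limma). *Csf1r* averaged 0.006 FPKM in *f/f* and 0.216 FPKM in *-/-* libraries. It reached the filter of 0.1 FPKM only through the *-/-* libraries, which favours a call as higher. *Ctsg* had 4, 0 and 13 fragments in the *f/f* libraries. Erythroid markers summed to 236 FPKM in *f/f* library 2 and to 64.7 to 77.5 FPKM in the other 5, and none of them passed. Megakaryocyte markers summed to 543 to 623 FPKM in *f/f* and 675 to 1016 FPKM in *-/-* libraries, with *-/-* library 1 the highest and none of 5 called. Of 9 B and T cell markers, 3 were tested and none passed. *Cd48* lies outside the sorting gate by protein, and its mRNA was at 9.61 to 11.1 FPKM in *f/f* and 19.7 to 20.5 FPKM in *-/-* cells. In bulk RNA, a different mixture of cells and a different amount of mRNA per cell cannot be told apart, and the part of these markers in the values of the stress genes was not tested.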

How the data were processed

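Per the methods, trimming (TrimGalore), alignment to GRCm38 (STAR) and counting (FeatureCounts) were done by the authors, who deposited FPKM per gene and library with the columns of their DESeq2 comparison (mean count, fold change, standard error, statistic and p-values), which were not used. The annotation release was not given in the sources used here. Fragments were recovered from FPKM times gene length, and 138677 of 138696 values were whole within 0.05. Fragments on genes per library ranged from 38643255 to 57895793, and intervals cover the spread between libraries.

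Libraries were put on one scale by the median ratio of each gene to its geometric mean, because 1 *-/-* library carried the divisor of another. log2(FPKM + 0.1) of the 19293 genes with a mean of at least 0.1 FPKM was compared with limma (version 3.58.1, R 4.3.3; lmFit, eBayes with a variance trend), with Benjamini-Hochberg adjustment over all of them and a threshold of 0.05. Fold changes are on that scale and understate changes of low genes. Ratios were compared by exact permutation (scipy 1.17.1). The limma step was tested on simulated independent libraries, where 174 of 200 changed genes were recovered and 13 of 187 calls were false. That simulation held no close pairs, so it does not show how calls behave in these libraries. Groups came from the sample titles. The labels do not say which mouse a library came from, so p-values rest on the spread between these libraries, which may differ from that between mice. Voom on recovered fragments, other pseudocounts, filters, scalings, a replicate block, leaving out each library and averaging of close pairs were the alternatives.

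The members and lists were chosen with earlier results of these data known. Named were all members, in each list the genes with an adjusted p under 0.05 or, where fewer than 2, the 2 with the lowest p, *Zfp143* and the genes of the ratios. *Procr*, *Slamf1* and *Il7r* were named after their values were seen. Promoters are from RefSeq, coordinates from GENCODE release M21. Exon union lengths of that release equal the listed length for all members but *Atf4*.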

Additional observations from a re-analysis of the deposited data

How the results depend on the processing

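Of the 10 stress genes, 1 was called in the main analysis. None was called with FPKM as deposited, with the third *-/-* library divided by its own total, with no variance trend, with the replicate block or with the close pairs averaged (0 each), and 0 to 2 were called when 1 library was left out. Of the wider lists, 6 genes were called, against 3 with FPKM as deposited, 3 with the own total, 3 with no variance trend, 10 with voom on recovered fragments, 1 with the replicate block, 0 with the close pairs averaged and 1 to 22 when 1 library was left out. Over all genes, 1154 were called, against 191 with the replicate block, 47 with the close pairs averaged, and 223 to 2286 when 1 library was left out. Leaving out *f/f* library 2 (2286) or *-/-* library 1 (2113) raised this count, but a close pair is then the whole of its genotype group. Leaving out any library of the close pairs lowered the count. It fell to 370 and 259 without *f/f* libraries 1 and 3 and to 353 and 223 without *-/-* libraries 2 and 3. FPKM as deposited moved the share of higher genes among those called from 50.1% to 63.5%, and leaving out *-/-* library 3 moved it to 37.7%.

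The same-numbered libraries did not deviate together from their genotype means (r = -0.095, -0.088 and 0.036 for numbers 1 to 3), and the replicate block lowered the count of calls to 191. With the block, the adjusted p of *Asns* was 0.136. Litter pairs across the genotypes are described for the mice, but which libraries form a pair is not stated, and the numbers were not used to pair them.

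The sign of *Sesn2* turned to -0.031 with the close pairs averaged, and its log2 fold change ranged from -0.024 (without *f/f* library 3) to 0.28 when 1 library was left out. That of *Mthfd2* ranged from -0.028 (without *f/f* library 2) to 0.26. The cause was not tested. The other 8 members kept their sign under every alternative in which they were tested. The difference of the *Shmt2* over *Shmt1* ratio kept its sign under every alternative run. That of *Mthfd2* over *Mthfd2l* (-0.14) ranged from -0.42 (without *f/f* library 2) to 0.034 (without *f/f* library 1) and was also above 0, at 0.021, without *-/-* library 1.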
